A study of Mus musculus with 3 samples.

Results

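Integrin and laminin genes were compared between beta cells, wild-type ductal cells and Fbw7-deleted ductal cells of the mouse pancreas. Members were all gene symbols starting with Itga or Itgb, or Lama, Lamb or Lamc with a number, that had a probe set assigned to a single gene by the platform annotation. This gave 41 genes of the 19938 measured: 10 laminin chains, 27 integrin subunits and 4 further genes whose symbols fit the naming pattern without encoding a subunit. Where a gene had several probe sets, its level was taken from the probe set whose mean across arrays was highest, which concerned 1 member, Itgad. All 41 matched a mouse RefSeq gene by gene ID and kept their symbols.

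Each group was 1 array of pooled cells, and all mice were C57BL/6 and older than 6 weeks. Beta cells came from 3 mice of genotype Fbw7 +/+ with MIP-GFP, a reporter that labels beta cells, and were untreated. Wild-type ductal cells came from 6 Fbw7 +/+ mice and deleted ductal cells from 6 Fbw7 F/F mice. Both ductal groups carried Ck19-CreERT, a tamoxifen-dependent Cre that acts where the cytokeratin 19 promoter is active, and R26-LSL-YFP, a reporter switched on by Cre. Tamoxifen was given for 5 days and cells were collected 7 days after the last dose. Beta and ductal cells therefore differed in cell type, reporter, Cre and tamoxifen together. For each array 30000 cells were sorted and 18 ng of RNA was amplified.

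Laminins are cross-shaped trimers of an alpha, a beta and a gamma chain that polymerize into the sheet of a basement membrane. Integrins are cell surface receptors made of an alpha and a beta subunit, which bind laminins, collagens, fibronectin or counter-receptors on other cells and connect them to the actin or keratin cytoskeleton. Ducts and islets in the pancreas both lie against a basement membrane, and alpha6beta4 integrin anchors epithelial cells to it through hemidesmosomes.

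Levels are deposited log2 intensities of 1 array each, so differences have no replicate check and are described without p-values. A level floor was set for each array at the median of its single-gene probe sets, which was 5.30 for beta cells and, for ductal cells, 5.23 (wild-type) and 5.24 (deleted). Genes were compared between a pair of arrays where at least the higher reading exceeded its array's floor. Of the 41 members, 17 read below the floor on every array, 19 above it on every array, 3 on 1 array and 2 on both ductal arrays. Intensities of different probe sets have no common scale, so each gene was compared only with itself across arrays and with the floor.

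The arrays held signal of marker genes of cell types other than duct and beta cells. Which cells this signal came from, labelled or not, was not tested. The main probe set of Krt19, a duct keratin, read 6.71 in beta cells, 9.13 on the wild-type and 9.53 on the deleted ductal array. The insulin gene Ins2 read 11.04 in beta cells against 5.31 and 5.87. The duct chloride channel gene Cftr was below the floor on both ductal arrays, and the beta cell factor gene Pdx1 was below it in beta cells. All 9 mesothelial markers were above the floor on both ductal arrays, with a median level of 10.24 in wild-type and 10.07 in deleted cells, and 4 of 9 in beta cells, with a median of 5.15. Acinar markers had median levels of 12.04 (beta cells), 9.27 (wild-type ductal) and 11.13 (deleted ductal). Fbxw7, the targeted gene, read 6.32 on the wild-type and 5.71 on the deleted ductal array. Whether its probes lie inside the deleted stretch was not known, so this does not check the deletion. In sorted pools, fewer cells of a type and less RNA per cell cannot be told apart.

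**Figure D1:**
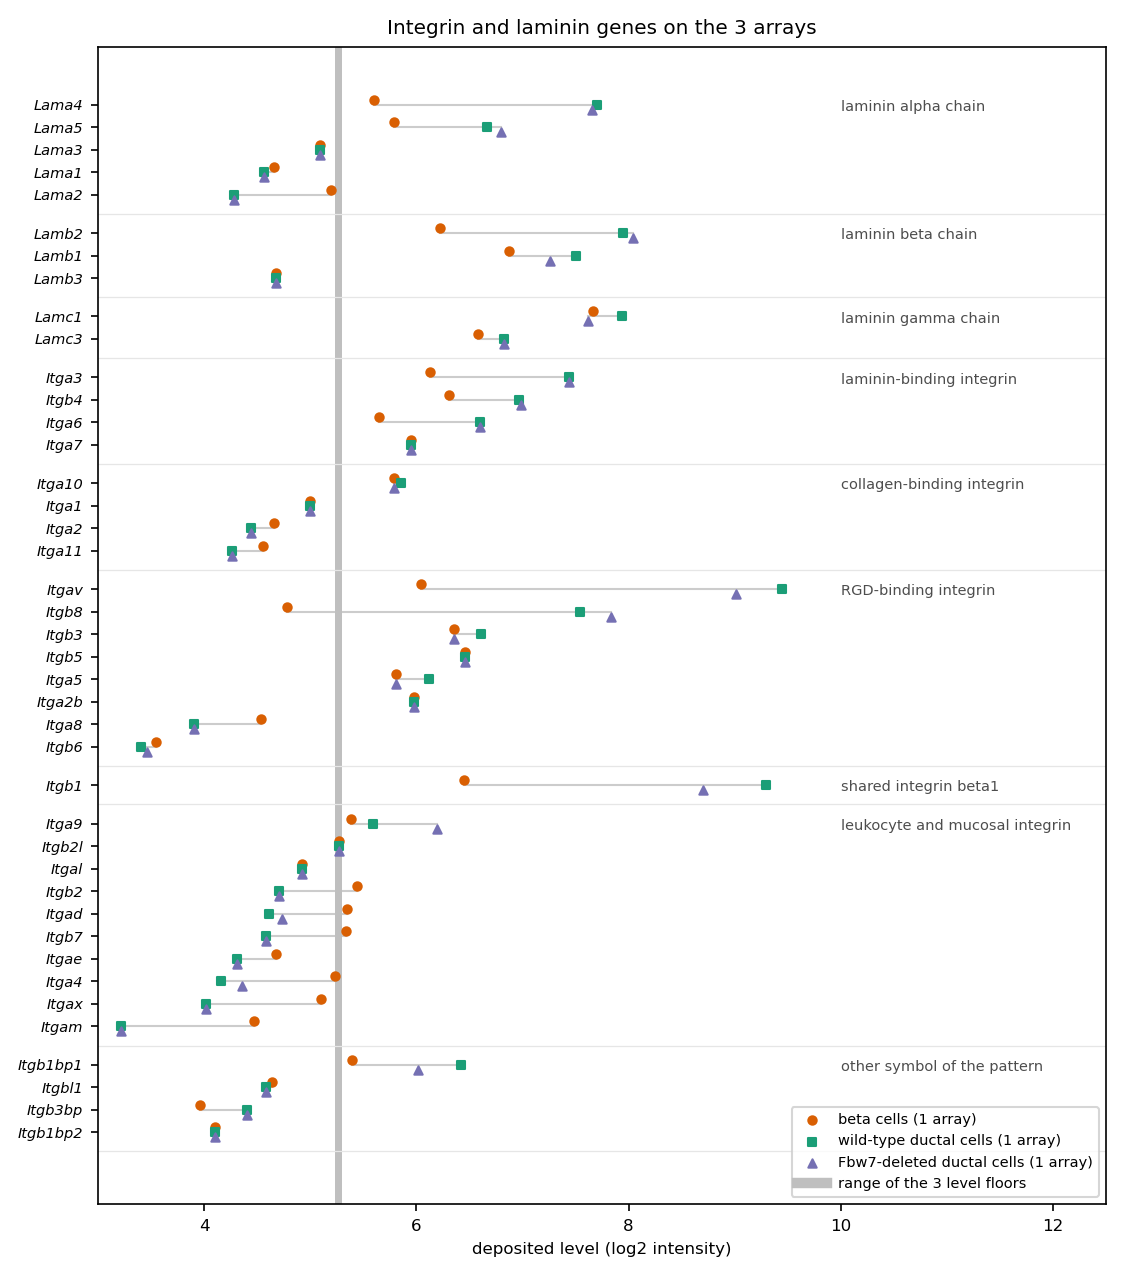
Levels of the 41 genes (log2 intensity, horizontal axis) on the 3 arrays, with genes grouped by role; each symbol is 1 array and the grey band spans the 3 level floors. Itgav, Itgb1 and Itgb8 have both ductal symbols far to the right of the beta cell symbol, while 17 genes are below the floor of every array.

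Many members read the same on several arrays. Exactly equal values in both ductal arrays were found for 24 of the 41 members (58.5%), and 9 (22.0%) were equal in all 3, against 59.1% and 21.2% of all 19938 genes. For the 7 members above the floor with equal ductal values, a difference of 0 was recorded. These were Itga3, Itga6, Itga7, Itga2b, Itgb5, Itgb2l and Lamc3. In a further 3 members, Itga5, Itgb3 and Itga10, beta and deleted ductal cells held the same value and wild-type ductal cells a higher one. Over all 19938 genes, 775 held the same value in beta and deleted ductal cells and another, higher or lower, in wild-type ductal cells.

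Deleted cells were set against wild-type cells of the same ductal sort to see whether adhesion genes differed with Fbw7. None of the 21 members above the floor was at least 2-fold apart, where 3.25% of the 10035 genes above the floor were (1.43% higher and 1.81% lower in deleted cells). After quantile normalization the calls over all genes were 140 higher and 93 lower, against 144 and 182 as deposited. Of the 21, 5 were higher in deleted cells, 9 lower and 7 equal, with a median difference of 0, as over all genes, of which 1643 were higher, 3551 lower and 4841 equal. After quantile normalization, and with the loess trend of differences on level removed, 12 members were higher and 9 lower, so the lean depended on the scaling. At a threshold of 1.5-fold, 2 of the 21 were apart against 10.1% of all genes: Itga9 was higher and Itgb1 lower. The median size of the difference, whatever its sign, was 0.10 for the members and 0.01 for all genes above the floor, and 0.12 and 0.07 after quantile normalization, which leaves few exact ties.

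Itgb1 encodes the beta1 subunit, the partner of most laminin-, collagen- and fibronectin-binding alpha subunits. Its level was 6.45 in beta cells, 9.30 on the wild-type and 8.70 on the deleted ductal array, where the ductal difference was -0.59 or 1.51-fold. That size exceeded the size for 90.1% of the genes above the floor. Of all genes above the floor, 48.2% had a difference of 0 between the ductal arrays. Itgav encodes alphaV, which pairs with beta1, beta3, beta5, beta6 or beta8 and binds RGD sequences in matrix proteins. It read 9.44 in wild-type and 9.02 in deleted cells, a difference of -0.43. Itgb1bp1 encodes ICAP-1, a protein that binds the beta1 tail and restrains integrin activation, and read 6.42 against 6.02, a difference of -0.41. All 3 genes were therefore lower in the deleted cells by less than 2-fold, and stayed lower under quantile normalization, where their differences were -0.47, -0.32 and -0.32.

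Itga9, whose alpha9 subunit pairs with beta1 and binds tenascin-C and osteopontin, had the highest positive difference among the 21. It read 5.39 (beta cells), 5.59 (wild-type ductal) and 6.20 (deleted ductal), which is 0.60 or 1.52-fold between the ductal arrays. Its size exceeded that of 90.4% of genes above the floor, among which 48.2% had a difference of 0. After quantile normalization the difference of Itga9 was 0.54. Itgb8, which with alphaV binds and activates latent TGF-beta, read 7.55 in wild-type and 7.83 in deleted cells, a difference of 0.29. Its alphaV partner gene was at -0.43 in the same comparison, so the genes of this pair differed in opposite directions.

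Among the other RGD-binding subunits, Itga5, the fibronectin receptor subunit, read 6.12 in wild-type and 5.81 in deleted cells. Itgb3, whose beta3 subunit pairs with alphaV and on platelets with alphaIIb, read 6.61 against 6.36. The differences were -0.31 and -0.26. Itgb5 read 6.46 and Itga2b, the platelet alphaIIb gene, 5.98 on every array.

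Of the 4 subunit genes grouped as laminin-binding, 3 were equal on both ductal arrays, beside 48.2% of all genes above the floor. Itgb1, a partner gene shared by the alpha subunits, is described above. Itgb4, the hemidesmosome subunit, read 6.97 in wild-type and 6.98 in deleted cells. Its partner gene Itga6 read 6.60 in both, and Itga3, the alpha3 subunit of the main beta1 laminin receptor of epithelia, 7.44 in both. Itga7, a laminin receptor subunit of muscle, read 5.95 on every array.

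Laminin chain genes were within 1.5-fold as well. Lamc1, the gamma1 chain found in most laminins, read 7.93 in wild-type and 7.62 in deleted cells, a difference of -0.31. Lamb1, a beta chain of many basement membranes, read 7.51 against 7.26, a difference of -0.25. Lamb2, which can take the place of beta1, read 7.94 against 8.04, a difference of 0.10. Lama5, the broadly expressed alpha chain of adult epithelial basement membranes, read 6.67 against 6.80, a difference of 0.13. Lama4, an alpha chain of vessels and mesenchymal tissue, read 7.70 against 7.65, a difference of -0.05 that turned to 0.11 after quantile normalization. Of the 6 chains above the floor 3 were lower, 2 higher and 1 equal as deposited, but 2 were lower and 4 higher after quantile normalization.

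**Figure D2:**
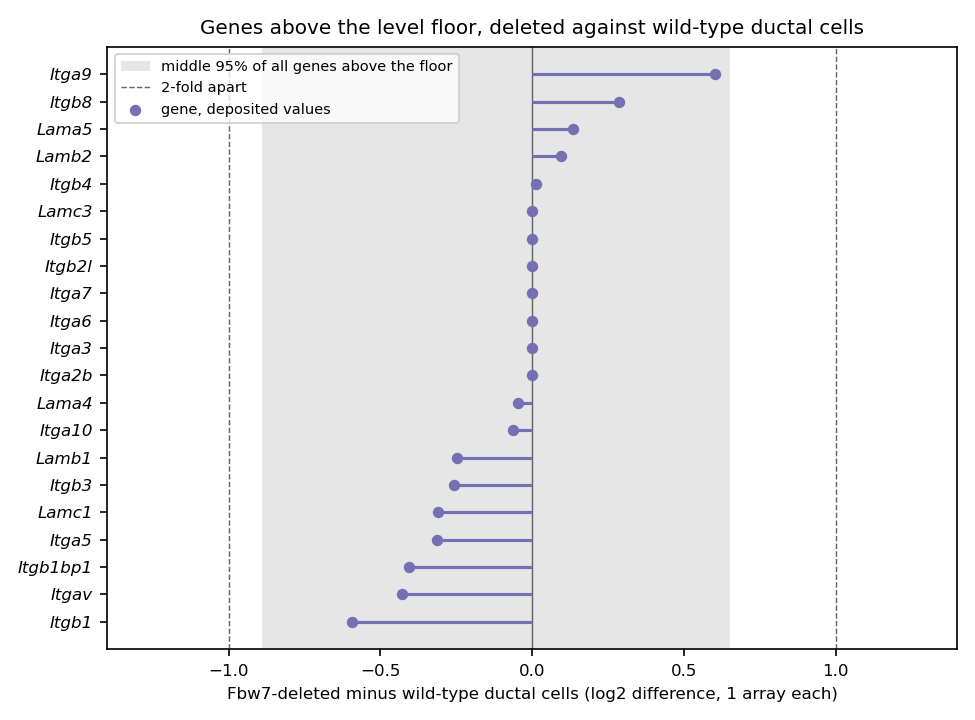
Difference between deleted and wild-type ductal cells (log2, horizontal axis) for the 21 members above the level floor; each point is 1 gene on 1 array per group, the grey area holds the middle 95% of all 10035 genes above the floor (-0.89 to 0.65) and dashed lines mark 2-fold. All 21 genes lie within the grey area, from Itgb1 at -0.59 to Itga9 at 0.60.

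Markers of several cell types differed between the ductal arrays too. Mesenchymal markers were lower in deleted cells in 9 of 10 genes, with a median difference of -0.61; their summed linear intensity was 11071 in wild-type and 7198 in deleted cells. Duct markers were higher in all 9 genes above the floor, with a median of 0.96 and summed intensities of 2678 and 5209, while Cftr and Car2 were below the floor in both. Acinar markers were higher in all 8 above the floor, with a median of 1.92. Leukocyte markers were above the floor in 2 of 10 genes on each ductal array. The part of these marker differences in the values of Itgb1, Itgav and Itga9 was not tested.

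The comparison of beta with wild-type ductal cells describes how adhesion genes differ between an endocrine and a ductal sort. The genes of alphaV, beta1 and beta8 integrin and of the alpha4 laminin chain were at least 4-fold lower in beta cells. Of 23 members above the floor, 7 were at least 2-fold lower in beta cells (30.4%) and none was 2-fold higher, against 25.8% lower and 6.37% higher among all 11139 genes (2875 and 710 genes, or 2009 and 1189 after quantile normalization). The share apart in either direction was 32.2% of all genes, so the members' count lies near the background. At 1.5-fold 14 members were apart, against 50.1% of all genes, and at 4-fold 4 members, against 11.2%. In all, 17 of the 23 read lower in beta cells, 3 higher and 3 equal, where 5990 of all 11139 genes read lower and 3046 higher. After quantile normalization 13 of 24 members read lower and 11 higher, and with the loess trend of differences on level removed 12 and 11 of 23, so the lean towards lower values depended on the scaling. Their median difference was -0.31 against -0.11 for all genes, and after quantile normalization it was -0.09 against 0.09.

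Upstream sequences are given for the 3 integrin genes that were more than 4-fold lower in beta cells, as the DNA next to the start of each transcript. They are the 250 bases before the start (RefSeq, build GRCm38.p6), 5′ to 3′ on the strand of the gene. Each window was searched on both strands for 5 short motifs of general or adhesion-related promoter factors. The SP1 box, bound by a family of zinc finger factors common at promoters with many CG pairs, was searched as GGGCGG. The AP-1 site, bound by Fos and Jun proteins, was searched as TGANTCA, where N is any base. The TEAD site, bound by the factors that carry YAP and TAZ to DNA, was searched as GGAATG. The TATA box, bound by the TATA-binding protein within the general transcription machinery, was searched as TATAAA. The CCAAT box, bound by the NF-Y complex, was searched by the letters of its name. Capitals mark a match, and no base lay in more than 1 match.
Itgav (chr2:83724147-83724396, plus strand): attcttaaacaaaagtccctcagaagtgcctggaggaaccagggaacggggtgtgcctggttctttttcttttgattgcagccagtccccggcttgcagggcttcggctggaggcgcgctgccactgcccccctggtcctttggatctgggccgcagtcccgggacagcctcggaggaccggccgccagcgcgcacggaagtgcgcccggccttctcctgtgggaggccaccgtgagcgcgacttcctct
Itgb1 (chr8:128685404-128685653, plus strand): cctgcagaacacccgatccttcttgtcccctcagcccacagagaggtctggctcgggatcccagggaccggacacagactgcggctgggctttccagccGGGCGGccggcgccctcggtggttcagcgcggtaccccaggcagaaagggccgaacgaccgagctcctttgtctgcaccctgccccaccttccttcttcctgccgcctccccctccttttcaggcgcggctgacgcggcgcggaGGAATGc
Itgb8 (chr12:119238277-119238526, minus strand): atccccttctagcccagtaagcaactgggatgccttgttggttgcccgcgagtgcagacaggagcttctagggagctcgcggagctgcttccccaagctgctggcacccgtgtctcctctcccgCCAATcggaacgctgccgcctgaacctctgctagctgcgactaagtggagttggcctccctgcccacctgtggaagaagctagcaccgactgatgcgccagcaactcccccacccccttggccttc
The window of Itgb1 held 1 SP1 box and 1 TEAD site, that of Itgb8 held 1 CCAAT box, and that of Itgav held none of the 5 motifs. GC content was 64.4% for Itgav, 68.0% for Itgb1 and 62.4% for Itgb8. The median was 52.4% over all 32851 RefSeq windows and 56.2% over the 30 member windows. Member windows ranged from 38% for a window of Itgb6 to 72.4% for Lama5. Of 30 windows of 27 members, 10 held an SP1 box (33.3% against 32.7% of all windows), 5 a CCAAT box (16.7% against 33.8%), 3 a TEAD site (10% against 12.6%), 1 an AP-1 site (3.33% against 6.75%) and 0 a TATA box (against 12.4%). These are matches of letters, not measured binding.

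Itgav read 6.04 in beta cells against 9.44 (wild-type) and 9.02 (deleted) in ductal cells. Against the wild-type array it was 10.6-fold lower, a size above that of 98.1% of genes tested. Both ductal arrays were far above the beta cell array, which was itself above the floor. The difference of -3.40 became -2.74 after quantile normalization and -2.16 with the loess trend of differences on level removed.

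Itgb1, at the 3 levels given above, was likewise far lower in beta cells than on either ductal array. The difference from wild-type cells of -2.85, or 7.22-fold, was larger than for 96.1% of genes tested, and was -2.01 and -1.55 under the same alternatives. Itgb1 and Itgav thus kept a difference of more than 2-fold under both.

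Itgb8 read 4.78 in beta cells, below the floor, and 7.55 and 7.83 in the ductal arrays. Against the floor it was at least 4.73-fold lower in beta than in wild-type cells and at least 5.77-fold lower than in deleted cells. The measured difference of -2.76 was -2.61 after quantile normalization and -2.49 with the trend removed, each against a beta cell level below the floor. Among the other alphaV partners, Itgb1 was lower in beta cells as given above. Itgb5 read 6.46 on every array, Itgb3 read 6.36 in beta cells against 6.61, and Itgb6, an epithelial partner that also activates TGF-beta, was below the floor on every array, at 3.54, 3.41 and 3.46. After quantile normalization Itgb5 stood at 0.56 and Itgb3 at 0.28, both higher in beta cells.

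Of the 4 laminin-binding subunit genes, Itga3, Itga6 and Itgb4 read lower in beta cells as deposited and Itga7 read 5.95 on every array, or 0.25 higher in beta cells after quantile normalization. Itga3 read 6.13 in beta cells against 7.44, which is 2.47-fold lower as deposited. Its difference was -0.73 after quantile normalization, under 2-fold. Itga6 read 5.65 in beta cells against 6.60, a difference of -0.95, and Itgb4 read 6.31 against 6.97, a difference of -0.66 that became -0.09 after quantile normalization. Itgb1bp1, the ICAP-1 gene, read 5.40 in beta cells against 6.42, a difference of -1.03 and of -0.92 after quantile normalization. Itga5 read 5.81 against 6.12. Of the 4 collagen-binding subunit genes, Itga10, a subunit of cartilage, was above the floor and read 5.79 in beta cells against 5.86. Itga1, Itga2 and Itga11 were below the floor on every array, from 4.26 to 5.00.

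As deposited, all 6 laminin chains above the floor read lower in beta cells than on the wild-type ductal array, but after quantile normalization 3 were lower and 3 higher. Lama4 read 5.60 in beta cells against 7.70 (wild-type) and 7.65 (deleted) in ductal cells. It was 4.27-fold lower in beta cells than in wild-type cells, and its difference of -2.10 became -1.69 after quantile normalization. Lamb2 read 6.22, 7.94 and 8.04, a 3.30-fold difference. That of -1.72 became -1.03 after quantile normalization and -0.87 with the trend removed. Both genes stood below their ductal levels under each of these settings.

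Lama5 read 5.79 in beta cells against 6.67, a difference of -0.87 that was -0.57 after quantile normalization. The 3 chains that turned were Lamb1, Lamc1 and Lamc3. Lamb1 read 6.87 in beta cells against 7.51, a difference of -0.64 and of 0.26 after quantile normalization. Lamc1 read 7.67 against 7.93, a difference of -0.27 and of 0.86. Lamc3, a gamma chain with narrow tissue expression, read 6.58 against 6.82, a difference of -0.24 and of 0.43. For these 3 genes no direction between beta and ductal cells held across scalings. The remaining chains were below the floor on every array: Lama1 of early embryonic basement membranes, Lama2 of muscle and nerve, and Lama3 and Lamb3, which build the laminin of hemidesmosome contacts. Lama3 read 5.09 and Lamb3 4.68 on every array. Lama2 read 5.20 in beta cells and 4.28 in both ductal arrays.

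**Figure D3:**
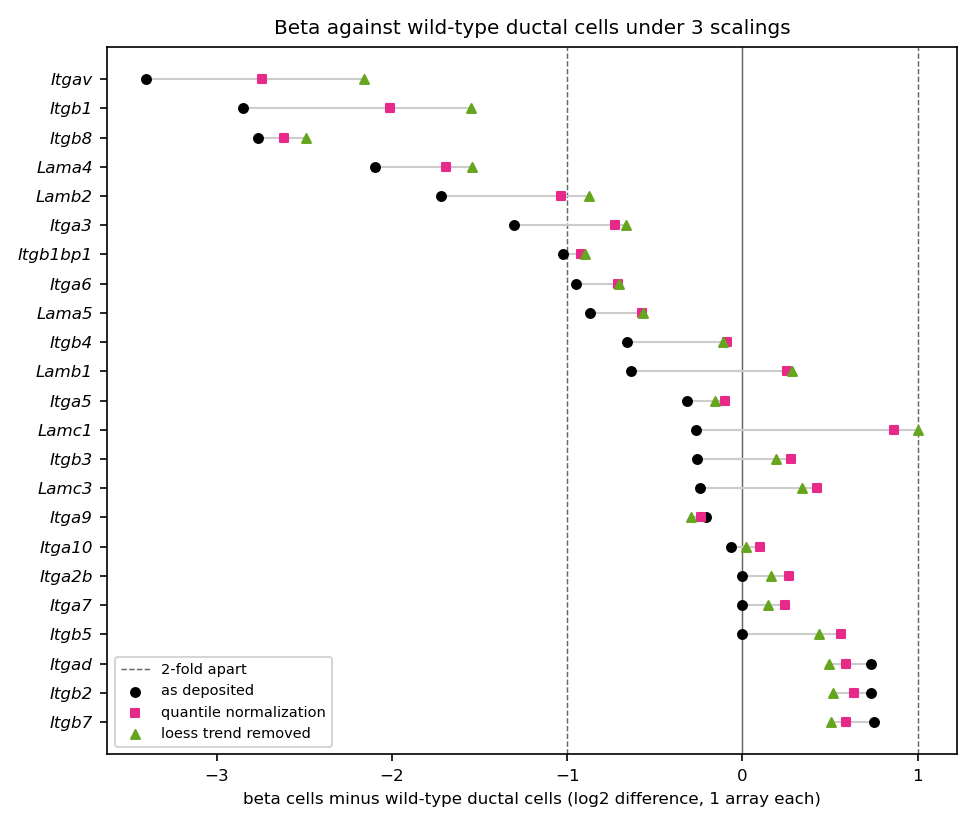
Difference between beta and wild-type ductal cells (log2, horizontal axis) for the 23 members above the level floor, as deposited (circles), after quantile normalization (squares) and with the loess trend removed (triangles); 1 array per group. Itgav, Itgb1, Itgb8 and Lama4 read more than 2-fold lower in beta cells under all 3, while Lamb1, Lamc1, Lamc3, Itgb3 and Itga10 cross 0.

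Itgb2, Itgb7 and Itgad, genes of leukocyte integrins, read higher in beta cells. Itgb2, the beta subunit shared by the leukocyte integrins, read 5.45 in beta cells and 4.71 in both ductal arrays. Itgb7, which pairs with alpha4 or alphaE on lymphocytes of the gut, read 5.34 against 4.59 in both. Itgad, a partner of beta2, read 5.34 against 4.61 and 4.73, and its second probe set read 4.25 on every array. These 3 genes were the members above the floor with higher readings in beta cells than on the wild-type ductal array, at 0.74, 0.75 and 0.74. Their ductal levels were below the floor, and against it the differences were 0.21, 0.10 and 0.11.

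Itga4, Itgax, Itgam and Itgae were below the floor on every array. Itga4, whose alpha4 subunit binds VCAM-1, read 5.23 in beta cells against 4.16 (wild-type) and 4.36 (deleted). Itgax, the CD11c gene, read 5.10 against 4.02 in both ductal arrays. Itgam, the CD11b gene, read 4.47 against 3.22, and Itgae, the alphaE gene of mucosal lymphocytes, 4.67 against 4.31. All 4 read higher in beta cells, by differences that lie wholly below the floor. Itgal, the LFA-1 alpha gene, read 4.92 on every array, and Itgb2l, which is closely related to Itgb2, 5.28, above the floor of both ductal arrays but not of the beta cell array. Itga9, counted with this group for its expression on leukocytes, was above the floor on every array and stood at -0.21 against wild-type ductal cells. Leukocyte markers were above the floor in 8 of 10 genes in beta cells and in 2 of 10 on each ductal array. Their summed linear intensity was 857 in beta cells against 265 (wild-type) and 267 (deleted), and Ptprc, the pan-leukocyte CD45 gene, read 5.88 in beta cells and was below the floor on both ductal arrays. The part of this leukocyte signal in the integrin values was not tested.

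Itga8, a receptor subunit for nephronectin, was below the floor on every array and read 4.53 in beta cells and 3.91 in both ductal arrays. The remaining symbols of the pattern were below the floor everywhere. Itgb3bp, a centromere protein gene, read 3.97 in beta cells and 4.40 in both ductal arrays. Itgb1bp2, the melusin gene of muscle, read 4.10 on every array, and Itgbl1, a secreted protein with integrin-like repeats, read 4.64 and 4.59.

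Beta cells were also set against deleted ductal cells. The 2 comparisons share the beta cell array, so the values are given side by side. Of 23 members above the floor, 7 were at least 2-fold lower in beta than in deleted cells and none higher, against 23% and 5.13% of 11095 genes; 28.1% of all genes were apart in either direction. After quantile normalization 1048 of all genes were higher and 1891 lower, against 569 and 2552 as deposited. At 1.5-fold 14 members were apart, against 46.5% of all genes, and at 4-fold 4, against 8.81%. Itgav stood at -2.97 here and -3.40 against wild-type cells, Itgb1 at -2.26 and -2.85, and Itgb8, taken against the floor in beta cells, at least at -2.53 and -2.24. Lama4 stood at -2.05 and -2.10, Lamb2 at -1.82 and -1.72, and Itga3 at -1.30 in both. Lama5 was 2.01-fold lower than in deleted cells and 1.83-fold lower than in wild-type cells (-0.75 and -0.57 on the log2 scale after quantile normalization, where 5 members were 2-fold lower than in deleted cells), and Itgb1bp1 did not reach it at -0.62. Itga9 was at -0.81 against deleted and -0.21 against wild-type cells, and Lamc1 at 0.05 and -0.27.

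Mesothelial and mesenchymal markers separated the beta and ductal arrays as well. Mesothelial markers were lower in beta cells than on the wild-type ductal array in 9 of 9 genes, with a median difference of -5.21 and summed intensities of 341 (beta), 9566 (wild-type ductal) and 9424 (deleted ductal). Upk1b, Lrrn4, Gpm6a, Muc16 and Bnc1 were below the floor in beta cells. Mesenchymal markers were lower in 9 of 10, with a median of -1.99. Duct markers had a median difference of -1.65 over 8 genes, and of -0.51 after quantile normalization. As deposited 6 of these 8 duct markers were lower in beta cells, 1 was higher and 1 equal. The part of these markers in the values of Itgav, Itgb1, Itgb8 and Lama4 was not tested.

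Genes that work with integrins inside the cell were examined in a list of 23 focal adhesion and integrin activation genes, 22 of them measured. Between the ductal arrays 2 of the 20 above the floor were at least 2-fold higher and 1 lower, beside 1.43% and 1.81% of all genes, with a median of 0. Fermt1, kindlin-1, the integrin activator of epithelia, read 4.45 in wild-type and 6.45 in deleted cells, at least 2-fold higher against the floor, where its difference was 1.22. Tns1, the tensin-1 gene, read 6.78 against 7.91, a difference of 1.13. Parvb, beta-parvin, a partner of integrin-linked kinase, read 7.02 against 5.66, a difference of -1.36, and Rsu1, a protein bound to the same complex through Pinch, read 9.47 against 8.96.

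Between beta and wild-type ductal cells 11 of 21 genes of this list were at least 2-fold lower and none higher, beside 25.8% and 6.37% of all genes. After quantile normalization 7 were lower and 3 higher (Ilk, Zyx and Tns1, of which the first 2 were named after their values were seen). The median difference was -1.07, and -0.26 after quantile normalization. Parva, alpha-parvin, stood at -2.74 and Vcl, vinculin, which links talin to actin, at -2.62, or -2.54 against the floor. Fermt3 and Parvg, forms found mainly in blood cells, were higher in beta cells at 0.75 and 0.66, or 0.41 and 0.44 against the floor.

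Other basement membrane genes were measured in a list of 19. None of the 15 above the floor was 2-fold apart between the ductal arrays, beside 3.25% of all genes, and the median was 0. Nid1, nidogen-1, which joins laminin to collagen IV, read 7.88 in wild-type and 6.94 in deleted cells, a difference of -0.94. Hspg2, the perlecan gene, read 8.85 against 8.09. Fras1 and Bcam, a laminin alpha5 receptor, were at 0.28 and 0.24. In beta against wild-type ductal cells 7 of 15 were 2-fold lower and none higher, beside 25.8% and 6.37% of all genes, with a median of -0.95 and of -0.46 after quantile normalization, where 4 were lower and 1 higher, Col4a2. Sparc stood at -2.56 and Bcam at -2.48, while the collagen IV gene Col4a2 stood at 0.84 and Col15a1 at 0.27.

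Ligands of integrins other than laminins were measured in a list of 24, 22 of them measured. Between the ductal arrays 2 of 13 were at least 2-fold higher in deleted cells and 2 lower, beside 1.43% and 1.81% of all genes, with a median of 0. Cdh1, the E-cadherin bound by alphaEbeta7 and also on the duct marker list, read 6.54 in wild-type and 9.17 in deleted cells, and Ccn1, a matrix protein that binds alphaV integrins, 8.68 against 9.69. Fn1, fibronectin, the ligand of alpha5beta1, read 11.44 against 10.12, and Thbs1, thrombospondin-1, 8.95 against 7.74. In beta cells Fn1 read 6.56 and Vcam1, the alpha4beta1 ligand, 5.40, against 11.44 and 10.09 in wild-type ductal cells. Vtn, vitronectin, a ligand of alphaV integrins, read 6.57 in beta cells against 5.33, a difference of 1.24, and Vwf, the von Willebrand factor gene of endothelium, 5.55 against 4.78. Of 14 ligand genes above the floor, 6 were at least 2-fold lower in beta cells than on the wild-type ductal array and 1 higher, beside 25.8% and 6.37% of all genes, with a median of -0.15. After quantile normalization 3 were lower and 2 higher, Vtn and Cdh1, and the median was 0.05.

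**Figure D4:**
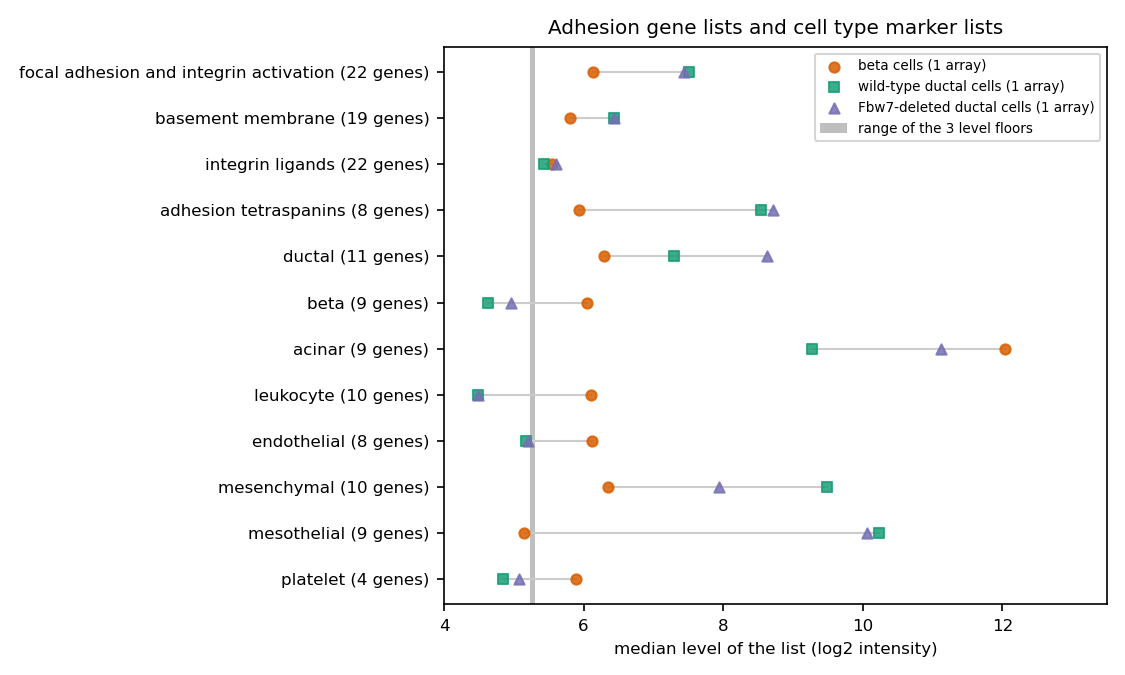
Median level (log2 intensity, horizontal axis) of each adhesion gene list and each cell type marker list on the 3 arrays; symbols are arrays and the grey band spans the level floors. Mesothelial markers sit at 10.24 and 10.07 in the ductal arrays and 5.15 in beta cells, and leukocyte markers at 6.11 in beta cells and 4.49 in both ductal arrays.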

How the data were processed

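Expression was measured on 3 arrays, 1 for each group. The deposited values are log2 intensities per probe set, made by the authors with RMA per the submitters' processing notes; no version of RMA is given in the sources used here, nor is it stated whether all 3 arrays went through it jointly. Of 35556 probe sets, 21789 had a single gene in the platform annotation, 1621 several and 12146 none; only the first kind was used. For each pair of arrays log2 values were subtracted and a gene was called at a difference of 2-fold or more. Since a group is 1 array, spread could not be estimated, no test was run, and the number of arrays limits the precision. A printed fold involving a level under its floor uses the floor and is a lower bound. Log2 differences not said to be against the floor are as measured. Calls and their shares over all genes also used measured differences, including those with the lower level under its floor.

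The members and lists were chosen with earlier results of these data known. Named genes are the members, Fbxw7, the fixed cell type markers and, from each list, the 2 highest and the 2 lowest differences. Marker lists held 9 to 13 genes for duct, beta, acinar, leukocyte, mesenchymal and mesothelial cells, 8 for endothelium and 7 for platelets. Alternatives were other floors, quantile normalization, centring, removal of a loess trend (span 0.3), calls at 1.5-fold or 4-fold, the mean of probe sets and subunits only. Scripts were tested on simulated data. Software versions were statsmodels 0.14.6 for loess, pandas 2.3.3 and numpy 2.4.6 for tables, and matplotlib 3.10.9 for plots, under Python 3.11.15.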

Additional observations from a re-analysis of the deposited data

How the results depend on the processing

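The number of members at least 2-fold apart depended on the fold threshold. At 1.5-fold it was 2 between the ductal arrays (0 at 2-fold) and 14 for beta against either ductal array (7 at 2-fold); at 4-fold it was 4 in both beta comparisons. Under the other alternatives run these totals, and with no floor, with levels raised to it, after quantile normalization or after centring those of the 4 adhesion lists, stayed within 1.5 times of the reported ones. Removing the loess trend left 4 members 2-fold lower and 1 higher, Lamc1, in beta against wild-type ductal cells, and 5 and 1 against deleted cells. With no floor, 3 members below it were 2-fold higher in beta than wild-type cells, Itgam, Itgax and Itga4. Their differences after quantile normalization were 0.83, 0.82 and 0.84, under 2-fold. No member called as deposited changed sign; Lamc1, not called as deposited, was lower there and 2-fold higher with the trend removed. Over all genes tested, quantile normalization and the loess trend moved the median of beta against wild-type ductal cells by 0.21 and 0.14, so single differences there hold relative to such a shift. No paired analysis was possible because each group has 1 array. Depth does not apply to arrays. The 17 members below the floor on every array entered the counts of calls only in the run with no floor. Where their readings are compared, the differences lie wholly below the floor.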

Other observations

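Tetraspanins, membrane proteins that assemble with integrins, were measured in a list of 8. In beta against wild-type ductal cells 4 of the 7 above the floor were at least 2-fold lower and none was higher by that much. Among all genes the shares were 25.8% and 6.37%. The median difference of the list was -2.84, and -2.22 after quantile normalization. Cd151, which binds laminin-binding integrins, read 4.77 in beta cells, below the floor, and 9.59 (wild-type) and 9.04 (deleted) in ductal cells. Cd81 read 8.10, 11.72 and 11.11. Cd37, a leukocyte tetraspanin, read 5.93 in beta cells and 5.09 in both ductal arrays. Between the ductal arrays none of 6 was 2-fold apart, beside 3.25% of all genes. Tspan8, also used here as a duct marker, stood at 0.84, Cd81 at -0.60 and Cd151 at -0.56.

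Platelet markers, given beside the platelet subunit gene Itga2b, were above the floor in 3 of 4 measured genes in beta cells, and in 1 (wild-type) and 2 (deleted) of 4 in ductal cells. Endothelial markers had a median difference of 0.82 over 7 genes in beta against wild-type ductal cells and of 0 over 3 between the ductal arrays. Beta cell markers were above the floor in 7 of 9 genes in beta cells and in 3 of 9 on each ductal array.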
